A study of Mus musculus with 24 samples.

Results

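The 10 genes described here encode IFN-γ, the factors that induce it and the receptor chains through which IFN-γ, type I interferons and IL-12 act, measured by RNA-Seq in the skin of C3H/HeJ mice with alopecia areata (AA). They were chosen by gene symbol, as the ligand and inducers Ifng, Il18, Tbx21 and Eomes and the receptor chains Ifngr1, Ifngr2, Ifnar1, Ifnar2, Il12rb1 and Il12rb2, and all 10 are among the 27179 genes of the count table. No expression value served as a criterion, but earlier results of these data were known when the genes were chosen.

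AA is an autoimmune disease in which T cells attack the hair follicle. IFN-γ is its best known cytokine. It is made by activated CD8+ T cells, type 1 helper T cells and NK cells, whose program is set by the T-box factors T-bet (Tbx21) and eomesodermin (Eomes) and is driven by IL-12 and IL-18. IFN-γ binds a receptor of IFNGR1 and IFNGR2 chains, which carry JAK1 and JAK2. Type I interferons bind IFNAR1 and IFNAR2, which carry TYK2 and JAK1. The IL-12 receptor joins IL12RB1, which IL-23 receptors share, with IL12RB2, and signals through TYK2 and JAK2 to STAT4.

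Skin was profiled after the JAK1 inhibitor INCB039110 (JAK1i), the JAK2 inhibitor CEP-33779 (JAK2i), the JAK3 inhibitor PF-06651600 (JAK3i), ruxolitinib (an inhibitor of JAK1 and JAK2) and tofacitinib (a pan-JAK inhibitor), each with 3 libraries. They were compared with 3 libraries of vehicle-treated skin and with 6 pretreatment libraries, 1 from each of the 6 cohorts. All groups are mice with AA, so no comparison with unaffected skin is made here. The labels give neither an age nor a mouse for each library, so p-values measure only the spread between libraries, which may be technical. According to the study's methods the inhibitors were given systemically, with JAK1i and JAK2i at an equal dose that exceeded the dose of JAK3i, ruxolitinib and tofacitinib. The labels differ from this, in that they describe treatment of the skin surface and list vehicle mice as untreated.

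Libraries held 17311913 to 21858670 counts each. Of the 24 library names, 6 (JAK1i replicates 2 and 3, JAK2i replicates 1 and 3, JAK3i replicates 1 and 2) carry, in a second deposited table of 7 other genes, values that match a different library of the count table. The groups here follow the header of the count table. Under the names of the second table, the JAK2i libraries would hold 0, 8.87 and 0.358 CPM of Ifng (counts scaled to library size, with TMM factors), against 8.11, 8.87 and 7.83 CPM under that header. Values without these 6 libraries are given for each gene after JAK1i and JAK3i against vehicle. They rest on 1 library for each of JAK1i, JAK2i and JAK3i, which is assumed to vary like the other groups. JAK1i replicate 3 also stood apart from JAK1i replicates 1 and 2, with a mean chi-square per gene of 220.31 and 192.58, against 4.71 to 73.55 for all other pairs of libraries within a group.

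Promoter sequences of 9 of the 10 genes were found in RefSeq (build GRCm38.p6), as the 250 bases before the start of transcription. The letters TTCNNNGAA (a STAT site), GAAANNGAAA (an interferon response element), GTGTGA (a T-box motif) and TGANTCA (an AP-1 site) were searched on both strands. TTCNNNGAA was found in 3 of the 9, Ifng, Ifnar2 and Il12rb2, against 7.0% of 32851 promoters of this length. GAAANNGAAA was found in Eomes alone (3.0% of all promoters), GTGTGA in Il12rb2 alone (12.3%) and TGANTCA in none of the 9 (6.7%). The 3 promoters with a STAT site are shown because their genes moved in 3 different ways, Ifng lower after every inhibitor but JAK2i, Ifnar2 in opposite directions after JAK1i and JAK3i, and Il12rb2 higher after 4 inhibitors. Capitals mark the STAT site and, in Il12rb2, also the T-box motif, which lies nearer to the start and reads TCACAC on this strand. A match describes the letters and says nothing of binding. They lie at chr10:118440796-118441045 on the plus strand (Ifng), chr16:91372533-91372782 on the plus strand (Ifnar2) and chr6:67376189-67376438 on the minus strand (Il12rb2), and are written 5′ to 3′.
Ifng: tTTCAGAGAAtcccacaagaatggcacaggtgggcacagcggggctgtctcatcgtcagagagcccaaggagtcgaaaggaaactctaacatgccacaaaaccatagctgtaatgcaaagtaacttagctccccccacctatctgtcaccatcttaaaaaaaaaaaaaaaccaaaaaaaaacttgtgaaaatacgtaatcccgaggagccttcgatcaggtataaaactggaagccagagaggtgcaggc
Ifnar2: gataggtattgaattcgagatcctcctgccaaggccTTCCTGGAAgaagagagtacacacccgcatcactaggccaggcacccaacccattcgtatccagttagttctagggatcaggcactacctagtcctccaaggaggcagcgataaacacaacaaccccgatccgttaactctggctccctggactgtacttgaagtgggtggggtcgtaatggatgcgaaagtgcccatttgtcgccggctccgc
Il12rb2: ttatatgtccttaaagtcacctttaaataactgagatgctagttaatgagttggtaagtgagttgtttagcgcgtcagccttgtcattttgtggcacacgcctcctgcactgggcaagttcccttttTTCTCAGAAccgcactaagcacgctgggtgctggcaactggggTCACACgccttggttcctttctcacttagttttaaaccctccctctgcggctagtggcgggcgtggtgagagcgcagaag

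Per kilobase of exon, the receptor chains of IFN-γ and Il18 stood far above Ifng and its transcription factors in vehicle-treated skin. Mean levels there were 64.6 CPM per kilobase for Il18, 32.0 for Ifngr1, 21.4 for Ifngr2, 13.7 for Ifnar1 and 12.6 for Ifnar2. They were 6.12 for Ifng, 2.98 for Il12rb2, 2.34 for Tbx21, 1.98 for Il12rb1 and 0.270 for Eomes. Pretreatment skin gave 56.4 CPM per kilobase for Il18, 5.84 for Ifng and 0.363 for Eomes, with the same order of genes apart from Il12rb1 and Tbx21, at 2.03 and 1.94. Among the vehicle libraries, the per-kilobase levels of Il12rb2 overlapped with those of Tbx21, and those of Tbx21 with those of Il12rb1. Differences between these neighbours within a library were not tested.

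Against vehicle, JAK1i lowered all 4 ligand and inducer genes, and JAK3i, ruxolitinib and tofacitinib each lowered 3 of the 4. The exceptions were Eomes after JAK3i and Il18 after ruxolitinib and tofacitinib. The receptor chains split, and none of the 10 genes was called after JAK2i. JAK1i lowered 7 and raised 1 of the 10 genes (edgeR, adjusted p below 0.05), where it lowered 35.4% and raised 28.8% of all 17770 genes tested (64.2% in all). JAK3i lowered 4 and raised 3 (33.1% and 31.7% of all genes, 64.8% in all). Ruxolitinib lowered 6 and raised 2 (27.2% and 23.6%, 50.9% in all), and tofacitinib lowered 6 and raised 2 (28.2% and 24.8%, 52.9% in all). With a background this high, the counts alone do not set these genes apart, and the sizes and directions below carry the description. The median log2 fold change of the 4 ligand and inducer genes was −3.93 after JAK1i, −2.12 after JAK3i, −1.78 after ruxolitinib and −2.41 after tofacitinib, and that of the 6 receptor chains was −0.21, 0.32, −0.31 and −0.22 in this order. The median over all genes was −0.06, 0.02, −0.01 and −0.01. These comparisons share the 3 vehicle libraries.

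**Figure D1:**
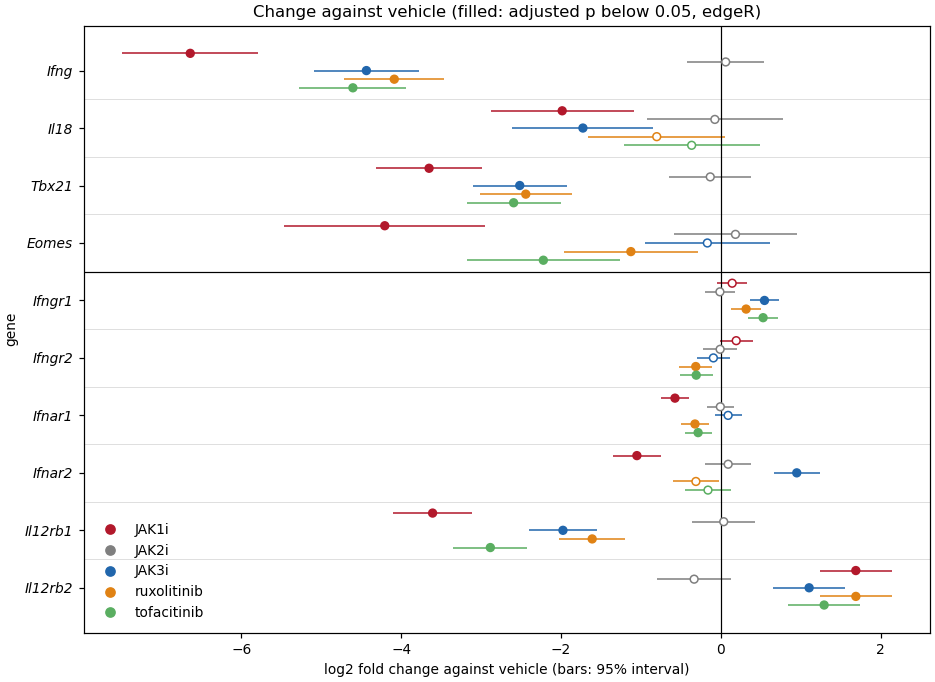
Log2 fold change of each of the 10 genes (rows) against vehicle for the 5 inhibitors (colours, JAK1i at the top of each row), with 95% intervals from edgeR; filled points passed an adjusted p of 0.05, and the black line separates the ligand and inducers from the receptor chains. Ifng lies at −6.64 after JAK1i and between −4.09 and −4.60 after JAK3i, ruxolitinib and tofacitinib, and every JAK2i point is open. After the 4 inhibitors other than JAK2i, Il12rb2 lies to the right of 0 and Il12rb1 to the left.

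Ifng (Entrez ID 15978, chromosome 10, 118441046 to 118445892, GRCm38), the type 1 cytokine itself, nearly vanished after 4 of the 5 inhibitors. Normalized levels were 0.0559, 0 and 0.168 CPM after JAK1i, 0.264, 0.358 and 0.457 CPM after JAK3i, 0.559, 0.433 and 0.388 CPM after ruxolitinib and 0.294, 0.197 and 0.478 CPM after tofacitinib, against 8.97, 7.55 and 7.24 CPM after vehicle. The 12 libraries of these inhibitors lay below every vehicle and every pretreatment library (5.11 to 10.1 CPM, median 7.63). JAK2i libraries, at 8.11, 8.87 and 7.83 CPM, lay among the vehicle and pretreatment libraries.

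The log2 fold change of Ifng against vehicle was −6.64 ± 0.41 after JAK1i (± standard error here and below; adjusted p = 8.89e-11, edgeR). After JAK3i it was −4.44 ± 0.32, after ruxolitinib −4.09 ± 0.30 and after tofacitinib −4.60 ± 0.32 (largest adjusted p = 3.17e-09, edgeR). In reads, the 3 JAK1i libraries held 4 Ifng reads in all against 495 in vehicle, which is 0.919% of the vehicle level with an exact 95% interval of 0.250% to 2.37% that covers counting error only. The corresponding shares were 4.54% (2.78% to 7.01%) after JAK3i, 5.80% (3.87% to 8.38%) after ruxolitinib and 4.01% (2.39% to 6.33%) after tofacitinib, whose intervals overlap. Because the JAK1i value rests on so few reads, it ranged from −7.79 without JAK1i replicate 3 to −5.997 without JAK1i replicate 2. Without the 6 libraries of conflicting names it was −6.88 after JAK1i and −4.07 after JAK3i. In the annotation, 336 of the 1295 exonic bases of Ifng overlap Gm49751 on the same strand, a symbol that the count table used here does not list.

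Tbx21 (Entrez ID 57765, chromosome 11, 97098071 to 97115331), the gene of the T-bet factor that drives Ifng transcription, followed Ifng with smaller changes. It was at 0.727, 0.368 and 0.280 CPM after JAK1i, 0.791, 1.02 and 1.22 CPM after JAK3i, 1.12, 0.737 and 1.36 CPM after ruxolitinib and 0.882, 0.836 and 1.17 CPM after tofacitinib, against 4.83, 6.61 and 6.02 CPM after vehicle. No library of these 4 inhibitors reached the lowest vehicle library or the lowest pretreatment library (3.36 to 6.61 CPM, median 4.89). Log2 fold changes of Tbx21 were −3.65 ± 0.32, −2.52 ± 0.28, −2.44 ± 0.28 and −2.59 ± 0.28 in this order (largest adjusted p = 7.19e-07, edgeR). JAK2i skin held 5.20, 5.93 and 4.79 CPM of Tbx21, which overlapped with vehicle and lay within the pretreatment range. The changes after JAK1i and JAK3i were −2.87 and −2.22 without the 6 libraries of conflicting names, both still called.

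Eomes (Entrez ID 13813, chromosome 9, 118478212 to 118486132), the second T-box factor of cytotoxic lymphocytes, was nearly absent after JAK1i and not called after JAK3i. It had 1 read in each of the 3 JAK1i libraries, 0.0559, 0.0526 and 0.0560 CPM. After JAK3i it was at 1.42, 0.460 and 1.12 CPM, after ruxolitinib at 0.653, 0.217 and 0.680 CPM and after tofacitinib at 0.196, 0.147 and 0.372 CPM, against 1.15, 0.795 and 1.42 CPM after vehicle. The JAK3i libraries thus overlapped with vehicle, whereas the other 3 inhibitors lay wholly below it. JAK1i skin held 4.88% of the vehicle level (3 reads against 70; exact 95% interval 0.982% to 14.8%, counting error only).

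The log2 fold change of Eomes was −4.21 ± 0.60 after JAK1i (adjusted p = 4.91e-06, edgeR), −2.22 ± 0.46 after tofacitinib (adjusted p = 0.000417) and −1.13 ± 0.40 after ruxolitinib (adjusted p = 0.0243). After JAK3i it was −0.17, with a 95% interval of −0.95 to 0.61 (adjusted p = 0.708, edgeR). The ruxolitinib call was lost without vehicle replicate 1 (adjusted p = 0.0559), vehicle replicate 3 (0.0993) or ruxolitinib replicate 2 (0.136, with a log2 fold change of −0.75). The change was −4.07 after JAK1i, still called, and 0.02 after JAK3i without the 6 libraries of conflicting names. In the annotation, 118 exonic bases of Eomes overlap Gm33460 on the opposite strand. JAK2i libraries held 0.969, 1.24 and 1.63 CPM and pretreatment libraries 0.999 to 1.84 CPM (median 1.57).

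Il18 (Entrez ID 16173, chromosome 9, 50554827 to 50581840) encodes a cytokine that keratinocytes and macrophages store as a precursor and that, with IL-12, drives lymphocytes to make IFN-γ. It was lowered after JAK1i and JAK3i. JAK1i libraries held 6.43, 6.37 and 37.8 CPM and JAK3i libraries 26.4, 18.6 and 15.5 CPM, against 58.5, 76.7 and 64.7 CPM after vehicle. The third JAK1i library lay above all JAK3i libraries and near ruxolitinib, but all 6 lay below vehicle and below the lowest pretreatment library (47.0 to 72.6 CPM, median 57.9). The log2 fold change was −1.98 ± 0.43 after JAK1i (adjusted p = 0.000443, edgeR) and −1.73 ± 0.42 after JAK3i (adjusted p = 0.0014).

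Ruxolitinib libraries held 34.7, 40.4 and 39.5 CPM of Il18 and tofacitinib libraries 47.3, 53.1 and 54.8 CPM. Both sets lay below the 3 vehicle libraries without overlap, yet the fit of all groups called neither. The estimate of spread in that fit draws on all groups, and the part of any single library in it was not tested for these 2 comparisons. The log2 fold changes were −0.80 (95% interval −1.66 to 0.05, adjusted p = 0.11, edgeR) and −0.36 (−1.21 to 0.48, adjusted p = 0.472). In fits of only the 2 groups compared, both passed (adjusted p = 8.51e-05 for ruxolitinib and 0.0274 for tofacitinib, edgeR), whereas the JAK1i change did not (adjusted p = 0.0649). The tofacitinib change passed under no other alternative. Without the 6 libraries of conflicting names, the ruxolitinib change of −0.76 passed as well (adjusted p = 0.000334, edgeR), and the changes after JAK1i and JAK3i were −3.25 and −2.07, both still called. Without JAK1i replicate 3 the change after JAK1i was −3.27, and without JAK1i replicate 1 it was −1.55. JAK2i libraries held 67.8, 67.7 and 54.2 CPM. The summed level of 5 keratinocyte markers, among them Krt14, a basal keratin, was 11620 to 13870 CPM after JAK1i, 7682 to 10010 CPM after JAK3i, 11680 to 13970 CPM after ruxolitinib and 11420 to 14750 CPM after tofacitinib, against 21540 to 24360 CPM after vehicle, with none of the 5 at 0 in any library. Of the 5, 3 were lowered after JAK1i, 5 after JAK3i, 3 after ruxolitinib and 4 after tofacitinib. Lowered genes made up 35.4%, 33.1%, 27.2% and 28.2% of all genes in this order. The 6 macrophage markers summed to 72.9 to 360 CPM after JAK1i and 1354 to 1776 CPM after JAK3i, against 578 to 653 CPM after vehicle. They summed to 382 to 479 CPM after ruxolitinib and 408 to 479 CPM after tofacitinib. Of the 6, 6 were lowered after JAK1i, 1 after ruxolitinib and 2 after tofacitinib. After JAK3i, 4 were raised and 0 lowered, where 31.7% of all genes were raised. The parts of keratinocytes and macrophages in the Il18 result were not tested.

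**Figure D2:**
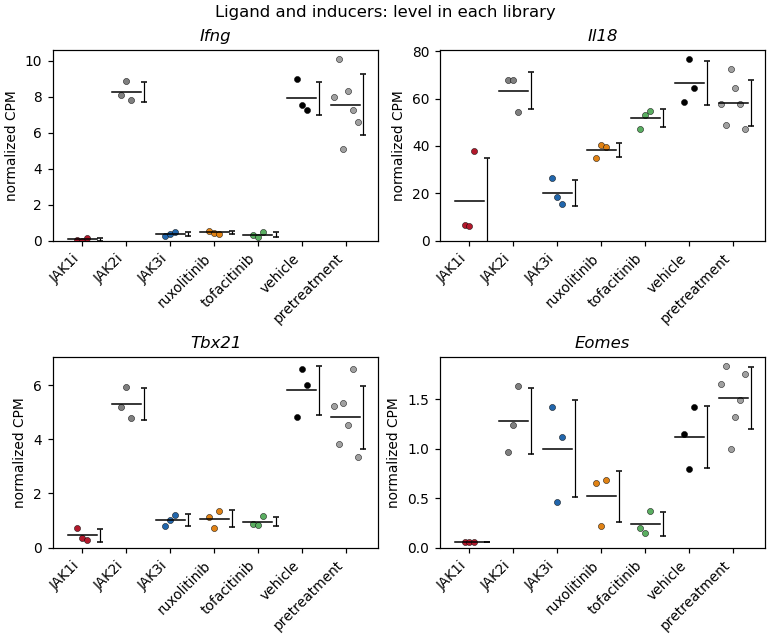
Normalized CPM of the ligand and inducers in each of the 24 libraries (points) by group (horizontal axis), with the group mean (line) and SD (bar, not drawn below 0). JAK1i, JAK3i, ruxolitinib and tofacitinib libraries lie at 0 to 0.559 CPM of Ifng against 7.24 to 8.97 CPM after vehicle, Il18 of JAK1i replicate 3 stands at 37.8 CPM above 6.43 and 6.37 CPM in the other two, and JAK3i libraries overlap with vehicle for Eomes.

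In bulk skin, fewer cells of a type and less RNA per cell cannot be told apart. The 7 T cell markers together made up 13.7 to 35.7 CPM after JAK1i, 16.2 to 21.5 CPM after JAK3i, 58.6 to 72.0 CPM after ruxolitinib and 31.4 to 43.4 CPM after tofacitinib, against 246.9 to 317.8 CPM after vehicle. All 7 markers were lowered by each of the 4 inhibitors, Cd8a, a CD8 coreceptor chain, by −7.68 after JAK1i and −5.02 after JAK3i on the log2 scale, and none of the 7 was at 0 in any library. The 5 NK cell markers summed to 1.05 to 5.995 CPM after JAK1i, where up to 1 of them was at 0 in a library, 27.0 to 36.1 CPM after JAK3i, 9.79 to 12.1 CPM after ruxolitinib and 8.70 to 13.4 CPM after tofacitinib, against 31.1 to 39.5 CPM after vehicle. The 5 markers of Langerhans and dendritic cells summed to 141.5 to 264.9 CPM after JAK1i, 141.1 to 228.8 CPM after JAK3i, 288 to 300.5 CPM after ruxolitinib and 268 to 304.4 CPM after tofacitinib, against 735.5 to 828.3 CPM after vehicle, with 4, 4, 3 and 3 of the 5 lowered and none at 0. Of the 5 NK cell markers, 5 were lowered after JAK1i, 2 after JAK3i, 5 after ruxolitinib and 3 after tofacitinib. After JAK3i, 1 of them was raised, as were 31.7% of all genes. Within the NK cell sum after JAK3i, Klra3, an inhibitory receptor of NK cells, had a log2 fold change of 4.14 and Klrk1, which encodes the activating receptor NKG2D, of −2.60, while Ncr1, the defining NK receptor, did not pass the test (−0.44). According to the study, CD8+ T cells in AA also carry NKG2D, so the sum is not of NK cells alone. Lowered genes made up 35.4% of all genes after JAK1i, 33.1% after JAK3i, 27.2% after ruxolitinib and 28.2% after tofacitinib. The part of these cell types in the results for Ifng, Tbx21, Eomes and Il12rb1 was not tested.

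Set against the summed CPM of the CD3 chains Cd3d, Cd3e and Cd3g in the same library, the type 1 genes did not fall alike. Ifng stood at 0% to 0.605% of CD3 in JAK1i skin, 3.45% to 6.25% in JAK3i skin, 0.878% to 1.46% in ruxolitinib skin and 1.08% to 2.18% in tofacitinib skin, against 7.69% to 12.6% after vehicle. All 12 libraries lay below vehicle. Pretreatment libraries stood at 5.9% to 15%, above JAK1i, ruxolitinib and tofacitinib but overlapping with JAK3i. Tbx21 stood at 10.3% to 16.7% of CD3 after JAK3i, above the 6.39% to 7.11% of vehicle, while JAK1i (1.01% to 4.50%), ruxolitinib (1.76% to 3.07%) and tofacitinib (3.25% to 5.33%) stood below it. Eomes stood at 5.08% to 18.6% after JAK3i, against 0.856% to 1.61% after vehicle, and Il12rb1 at 22.1% to 29.9%, against 7.84% to 11.4% after vehicle. Both sets, and that of Tbx21, also lay above pretreatment skin, at 5.08% to 7.4% for Tbx21, 1.15% to 3.44% for Eomes and 8.34% to 14.6% for Il12rb1. These ratios were not tested, and their denominator was itself lower after JAK3i (Cd3d at −3.64 on the log2 scale). The JAK3i libraries held 27, 9 and 22 reads of Eomes and 5, 7 and 9 reads of Ifng. NK cell markers, which are not in the denominator, summed to 27.0 to 36.1 CPM after JAK3i, against 31.1 to 39.5 CPM after vehicle. The part of NK cells in these ratios was not tested.

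**Figure D3:**
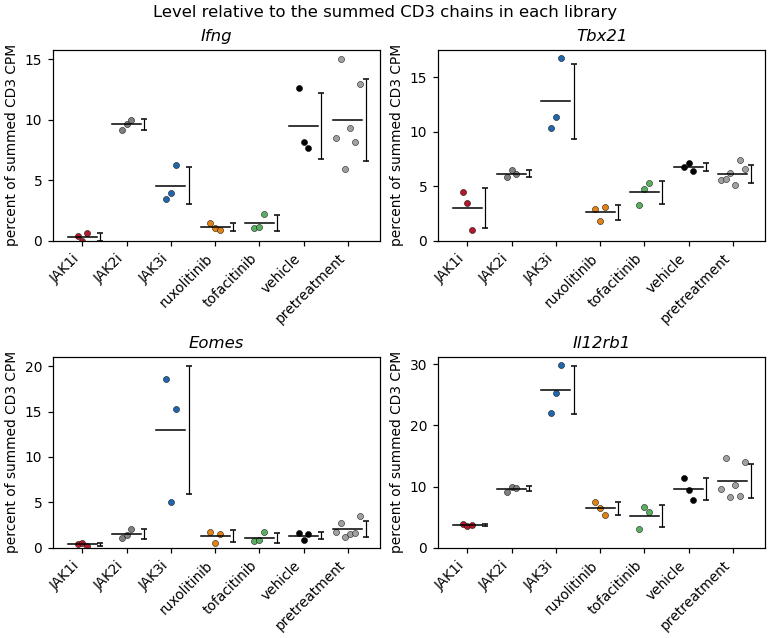
Level of Ifng, Tbx21, Eomes and Il12rb1 as a percent of the summed CPM of Cd3d, Cd3e and Cd3g in each library (points), by group, with the group mean (line) and SD (bar). After JAK3i, Tbx21, Eomes and Il12rb1 lie above vehicle while Ifng, at 3.45% to 6.25%, lies below the 7.69% to 12.6% of vehicle.

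The 2 chains of the IFN-γ receptor moved apart. Ifngr1 (Entrez ID 15979, chromosome 10, 19591949 to 19610229), the ligand-binding chain, was higher after JAK3i, ruxolitinib and tofacitinib. Its levels were 121, 148 and 130 CPM after JAK3i, 106, 115 and 120 CPM after ruxolitinib and 129, 132 and 134 CPM after tofacitinib, against 87.8, 91.3 and 93.9 CPM after vehicle. These 9 libraries lay above all vehicle libraries and above the highest pretreatment library (84.2 to 98.7 CPM, median 89.1). Log2 fold changes of Ifngr1 were 0.55 ± 0.09, 0.32 ± 0.09 and 0.53 ± 0.09 (largest adjusted p = 0.00555, edgeR), and 0.54 after JAK3i without the 6 libraries of conflicting names.

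After JAK1i, Ifngr1 was at 110, 85.2 and 107 CPM, with replicate 2 below vehicle and the others above it. Its log2 fold change of 0.14 (95% interval −0.04 to 0.33) did not pass the test (adjusted p = 0.165, edgeR), but it passed without JAK1i replicate 2 (0.33, adjusted p = 0.00303), with DESeq2 (0.20, adjusted p = 0.0413) and without the 6 libraries of conflicting names (0.39, adjusted p = 0.00169). JAK2i libraries held 89.0, 95.1 and 86.9 CPM, within the range of pretreatment skin.

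Ifngr2 (Entrez ID 15980, chromosome 16, 91547072 to 91565623), the signal-transducing chain, was lower after ruxolitinib and tofacitinib. It was at 63.4, 63.2 and 68.3 CPM after ruxolitinib and 71.5, 61.04 and 63.1 CPM after tofacitinib, against 79.7, 80.6 and 81.9 CPM after vehicle. The groups did not overlap, and the log2 fold change was −0.31 ± 0.10 for each (adjusted p = 0.0134 for ruxolitinib and 0.0143 for tofacitinib, edgeR). The tofacitinib call was lost without tofacitinib replicate 2 (adjusted p = 0.0641), and both were lost with no filter on low counts (adjusted p = 0.0526 for ruxolitinib and 0.0539 for tofacitinib). JAK3i libraries, at 75.9, 85.2 and 66.1 CPM, and JAK1i libraries, at 105, 96.4 and 75.4 CPM, lay on both sides of vehicle. The JAK1i change of 0.19 (95% interval −0.02 to 0.40) passed the test without JAK1i replicate 3 (0.43, adjusted p = 0.000238, edgeR) and with DESeq2 (0.26, adjusted p = 0.0353). Without the 6 libraries of conflicting names, Ifngr2 was called higher after JAK1i (0.505, adjusted p = 0.000352, edgeR) and lower after JAK3i (−0.26, adjusted p = 0.0399).

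The number of Ifngr1 reads per Ifngr2 read was 0.884 to 1.42 in JAK1i libraries, 1.60 to 1.97 in JAK3i libraries, 1.67 to 1.81 in ruxolitinib libraries and 1.80 to 2.16 in tofacitinib libraries, against 1.10 to 1.15 after vehicle. A ratio within a library does not depend on its scaling, and the JAK3i, ruxolitinib and tofacitinib libraries lay above all 9 vehicle and pretreatment libraries (1.06 to 1.24 before treatment), whereas JAK1i libraries lay on both sides of them. JAK2i libraries had 1.07 to 1.20.

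Ifnar2 (Entrez ID 15976, chromosome 16, 91372783 to 91405589), the type I interferon receptor chain that binds JAK1, was called in opposite directions after JAK1i and JAK3i. In the fit of all libraries, none of the other 9 genes was so called against vehicle. Without the 6 libraries of conflicting names, Ifngr2 was at 0.505 after JAK1i and −0.26 after JAK3i. Ifnar2 was at 17.4, 17.8 and 25.8 CPM after JAK1i and at 91.1, 78.9 and 74.1 CPM after JAK3i, against 42.8, 41.5 and 42.0 CPM after vehicle. Every JAK1i library lay below, and every JAK3i library above, all vehicle and pretreatment libraries (35.3 to 47.5 CPM, median 43.4). Its log2 fold changes were −1.05 ± 0.14 (adjusted p = 2.48e-06, edgeR) and 0.95 ± 0.14 (adjusted p = 6.18e-06), and without the 6 libraries of conflicting names −1.15 and 0.85, both still called.

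Ifnar2 was not called after ruxolitinib (32.0, 35.4 and 34.3 CPM; −0.31, 95% interval −0.60 to −0.02, adjusted p = 0.0672, edgeR) or tofacitinib (30.7, 45.3 and 37.1 CPM; −0.16, −0.45 to 0.13). Alone with vehicle in the fit, the ruxolitinib change passed (adjusted p = 0.00204, edgeR). JAK2i libraries held 43.5, 44.6 and 46.6 CPM of Ifnar2, just above the vehicle libraries and without a call. The 6 macrophage markers moved in the same directions as Ifnar2 after JAK1i and JAK3i. Their sum was 72.9 to 360 CPM after JAK1i and 1354 to 1776 CPM after JAK3i, against 578 to 653 CPM after vehicle, with 6 of 6 lowered after JAK1i and 4 of 6 raised after JAK3i, among them C1qb, a complement subunit made by macrophages (−2.42 and 1.54 on the log2 scale). Of all genes, 35.4% were lowered after JAK1i and 31.7% were raised after JAK3i. None of the 6 markers was at 0 in any library, and the part of macrophages in the Ifnar2 result was not tested. In the annotation, 315 exonic bases of Ifnar2 overlap Gm21970 on the same strand.

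Ifnar1 (Entrez ID 15975, chromosome 16, 91485238 to 91507441), its TYK2-binding partner, changed less. It was at 53.0, 47.4 and 63.5 CPM after JAK1i, 65.4, 66.2 and 63.3 CPM after ruxolitinib and 64.9, 68.4 and 67.0 CPM after tofacitinib, against 82.8, 78.6 and 82.6 CPM after vehicle. All 9 libraries lay below vehicle and below the lowest pretreatment library (75.2 to 84.7 CPM, median 81.2). Log2 fold changes of Ifnar1 were −0.57 ± 0.08 after JAK1i (adjusted p = 4.63e-06, edgeR), −0.32 ± 0.08 after ruxolitinib (adjusted p = 0.00254) and −0.28 ± 0.08 after tofacitinib (adjusted p = 0.00613). With total counts in place of TMM scaling, the last 2 calls were lost (adjusted p = 0.102 and 0.0879, edgeR).

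JAK3i libraries, at 94.0, 87.3 and 78.6 CPM, overlapped with vehicle (0.09, 95% interval −0.08 to 0.26). Ifnar1 was at −0.49 after JAK1i, still called, and −0.02 after JAK3i without the 6 libraries of conflicting names. There were thus 1.03 to 1.11 Ifnar1 reads per Ifnar2 read after JAK3i and 2.47 to 3.05 after JAK1i, against 1.89 to 1.97 after vehicle and 1.76 to 2.24 before treatment. Neither set of libraries overlapped with the controls.

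The 2 IL-12 receptor chains went in opposite directions. Il12rb1 (Entrez ID 16161, chromosome 8, 70808449 to 70821424), the chain shared with the IL-23 receptor, was at 0.615, 0.368 and 1.01 CPM after JAK1i, 1.69, 2.30 and 2.18 CPM after JAK3i, 2.89, 2.69 and 2.38 CPM after ruxolitinib, against 8.14, 8.80 and 7.39 CPM after vehicle. Tofacitinib libraries held 17, 24 and 24 reads of Il12rb1, a mean of 1.10 CPM, against 505 reads over the 3 vehicle libraries. All 12 lay below vehicle and pretreatment (7.11 to 9.83 CPM, median 8.32). The log2 fold changes were −3.61 ± 0.24, −1.98 ± 0.21, −1.61 ± 0.20 and −2.88 ± 0.22 in this order (largest adjusted p = 2.09e-06, edgeR), and without the 6 libraries of conflicting names −3.58 after JAK1i and −1.86 after JAK3i, both still called.

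Il12rb2 (Entrez ID 16162, chromosome 6, 67291318 to 67376188), the chain that is specific to IL-12 and is induced on type 1 T cells, was higher after JAK1i, JAK3i, ruxolitinib and tofacitinib. It was at 32.8, 42.0 and 34.6 CPM after JAK1i, 18.8, 25.4 and 28.7 CPM after JAK3i, 35.9, 36.5 and 37.0 CPM after ruxolitinib and 25.8, 22.9 and 34.5 CPM after tofacitinib, against 13.3, 10.98 and 9.59 CPM after vehicle. All 12 libraries lay above vehicle and above the highest pretreatment library (6.48 to 14.7 CPM, median 9.76). The log2 fold changes were 1.69 ± 0.22, 1.11 ± 0.22, 1.69 ± 0.22 and 1.29 ± 0.22 (largest adjusted p = 0.000162, edgeR), and without the 6 libraries of conflicting names 1.66 after JAK1i and 1.37 after JAK3i, both still called.

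Markers of deeper tissue were higher in the same libraries. The 5 skeletal muscle markers summed to 22540 to 47910 CPM after JAK1i, 10130 to 14900 CPM after JAK3i, 11810 to 14220 CPM after ruxolitinib and 10550 to 22490 CPM after tofacitinib, against 2593 to 4644 CPM after vehicle, with 5, 4, 4 and 5 of the 5 raised. The 4 adipocyte markers summed to 1747 to 2464 CPM after JAK1i, 5191 to 6256 CPM after JAK3i, 2876 to 3203 CPM after ruxolitinib and 2636 to 5731 CPM after tofacitinib, against 528.8 to 646.5 CPM after vehicle, with 4 of 4 raised each time. Of all genes, 28.8%, 31.7%, 23.6% and 24.8% were raised in these comparisons. None of the muscle and adipocyte markers was at 0 in any library. The part of muscle and fat in the results for Il12rb2 and Ifngr1 was not tested.

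JAK2i libraries, at 9.44, 8.61 and 8.84 CPM of Il12rb2, lay just below vehicle without passing the test (−0.33, 95% interval −0.80 to 0.13). In the annotation, 1519 exonic bases of Il12rb2 overlap Serbp1 on the opposite strand, a gene of an RNA-binding protein at 569 CPM after vehicle, and the strand setting of the counting is not given in the sources used here. Serbp1 itself did not pass the test after JAK1i (0.05, 590 CPM), ruxolitinib (−0.11, 526 CPM) or tofacitinib (−0.09, 535 CPM) and was lower after JAK3i (−0.38, 437 CPM; adjusted p = 0.00215, edgeR). The part of its reads in the Il12rb2 counts was not tested.

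Reads of Il12rb1 per read of Il12rb2 numbered 0.00876 to 0.0292 in JAK1i skin, 0.0761 to 0.0904 in JAK3i skin, 0.0643 to 0.0805 in ruxolitinib skin and 0.0323 to 0.0516 in tofacitinib skin. They numbered 0.865 to 1.06 in JAK2i skin, 0.612 to 0.801 in vehicle skin and 0.669 to 1.10 before treatment. The sets of the first 4 inhibitors lay far below the control libraries, and JAK1i and tofacitinib lay below JAK3i and ruxolitinib without overlap.

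**Figure D4:**
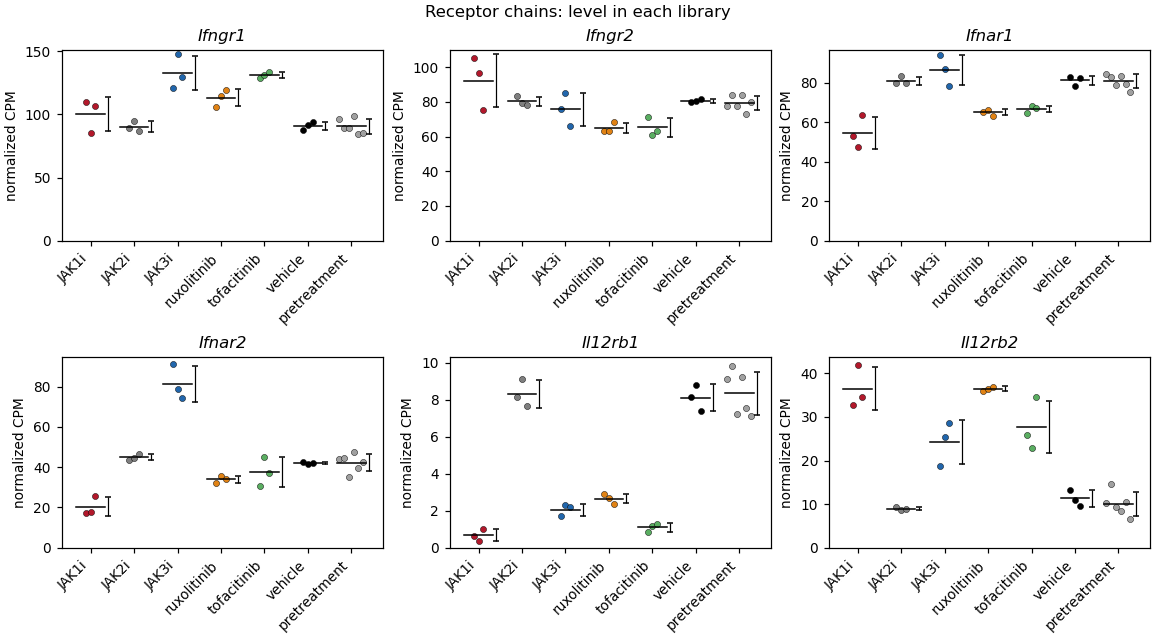
Normalized CPM of the 6 receptor chains in each of the 24 libraries (points) by group, with the group mean (line) and SD (bar). Ifnar2 lies at 17.4 to 25.8 CPM after JAK1i and 74.1 to 91.1 CPM after JAK3i, on either side of 41.5 to 42.8 CPM after vehicle, and Il12rb2 lies at 18.8 to 42.0 CPM after 4 inhibitors, above 9.59 to 13.3 CPM after vehicle.

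**Figure D5:**
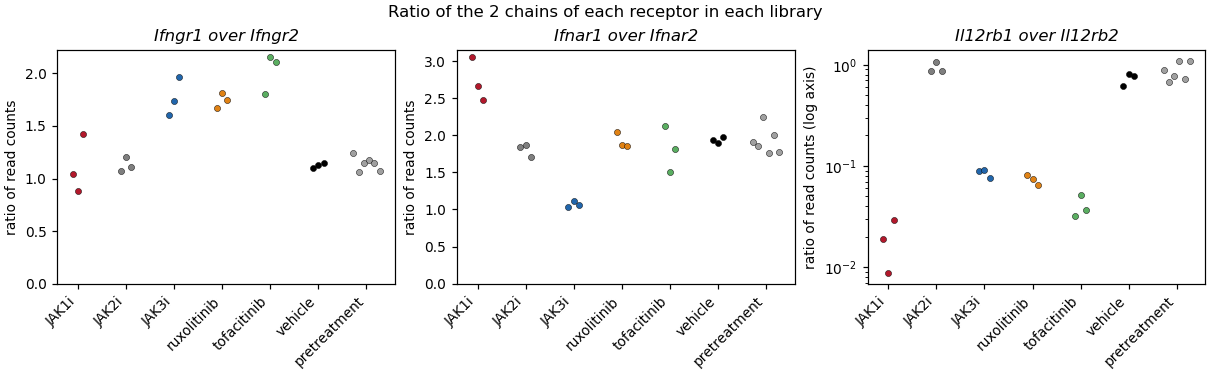
Ratio of the read counts of the 2 chains of each receptor in each library (points), by group; the axis of the IL-12 receptor is logarithmic. Ifngr1 over Ifngr2 lies at 1.60 to 2.16 after JAK3i, ruxolitinib and tofacitinib against 1.10 to 1.15 after vehicle, and Ifnar1 over Ifnar2 at 1.03 to 1.11 after JAK3i and 2.47 to 3.05 after JAK1i.

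After JAK2i, none of the 10 genes was called against vehicle by edgeR, none had an unadjusted p below 0.05, and none was called by DESeq2. Across all genes edgeR called 0% of 17770, with 213 at an unadjusted p below 0.05, where no gene was called by DESeq2. The 95% interval of the log2 fold change was −0.42 to 0.54 for Ifng, −0.64 to 0.38 for Tbx21 and −0.36 to 0.43 for Il12rb1, so that changes of the size seen after the other 4 inhibitors lie outside it. These intervals follow the header of the count table, and the JAK2i group includes libraries of conflicting names. With all libraries of conflicting names left out, the log2 fold change after JAK2i was 0.165 for Ifng, 0.031 for Tbx21 and 0.173 for Il12rb1. For Il12rb2 it was −0.389. Too few JAK2i libraries then remain to show the spread within that group. In the fit of all libraries, the interval was widest for Il18 (−0.92 to 0.77) and Eomes (−0.58 to 0.95) and narrowest for Ifnar1 (−0.17 to 0.16). The same holds between vehicle and pretreatment skin, where edgeR called 0 of the 10 genes (0% of all genes; 0 of the 10 and 232 of all genes at an unadjusted p below 0.05, and 0 by DESeq2). Ifng had a log2 fold change of 0.07 there (95% interval −0.35 to 0.48) and Eomes the lowest, −0.43 (−1.09 to 0.23).

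Against pretreatment in place of vehicle, JAK1i lowered 7 and raised 2 of the 10 genes (38.2% and 31.1% of all genes, 69.3% in all) and JAK3i lowered 4 and raised 3 (35.0% and 34.4%, 69.4% in all). Ruxolitinib lowered 7 and raised 2 (29.8% and 26.7%, 56.5% in all), and tofacitinib lowered 6 and raised 2 (30.4% and 28.0%, 58.3% in all). After JAK2i, edgeR and DESeq2 called 0 of the 10, with 0 at an unadjusted p below 0.05, and edgeR called 0% of all genes. Ifng changed by −6.57, −4.37, −4.02 and −4.54 after JAK1i, JAK3i, ruxolitinib and tofacitinib on the log2 scale, and Il12rb2 by 1.88, 1.29, 1.88 and 1.48. The genes called here but not against vehicle were Ifngr2 after JAK1i, at 0.22 (adjusted p = 0.0307, edgeR), and Ifnar2 after ruxolitinib, at −0.32 (adjusted p = 0.0315). The Ifngr2 call was lost without pretreatment replicate 5 (adjusted p = 0.0604), without JAK1i replicate 1 (0.106) and with total counts (0.334, edgeR). The Ifnar2 call was lost without pretreatment replicates 1, 2 or 4, without any one of the 3 ruxolitinib libraries (adjusted p = 0.0501 to 0.113, edgeR) and with total counts (0.193). Il18 after ruxolitinib and tofacitinib and Eomes after JAK3i were not called here either (−0.61, −0.17 and −0.60). Without the 6 libraries of conflicting names, Il18 after ruxolitinib was at −0.57. Without JAK3i replicate 1, Eomes after JAK3i was called (−0.94, adjusted p = 0.0383, edgeR).

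JAK1i and JAK2i, given at an equal dose, differed in 8 of the 10 genes, 7 lower and 1 higher after JAK1i (35.4% and 28.8% of all genes, 64.2% in all). Ifng was lower after JAK1i than after JAK2i by −6.70 ± 0.41 (adjusted p = 8.22e-11, edgeR) and Il12rb2 higher by 2.02 ± 0.22 (adjusted p = 2.09e-07). Without the 6 libraries of conflicting names, Ifng was at −7.045 and Il12rb2 at 2.05. JAK3i against JAK2i gave 4 lower and 3 higher (32.5% and 31.6% of all genes, 64.1% in all), with Ifng at −4.50 ± 0.32 and Ifnar2 at 0.86 ± 0.14.

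JAK3i and JAK1i differed from each other in 9 of the 10 genes, 7 higher and 2 lower after JAK3i (21.0% and 21.9% of all genes, 42.9% in all). According to the study's methods their doses differed. Eomes was higher after JAK3i than after JAK1i by 4.04 ± 0.61 (adjusted p = 3.15e-05, edgeR), Ifng by 2.20 ± 0.60 (adjusted p = 0.00559), Ifnar2 by 2.00 ± 0.14 (adjusted p = 3.67e-09), Il12rb1 by 1.63 ± 0.26, Tbx21 by 1.13 ± 0.36, Ifnar1 by 0.66 ± 0.08 and Ifngr1 by 0.40 ± 0.09. Il12rb2 (−0.58 ± 0.21) and Ifngr2 (−0.29 ± 0.10) were lower after JAK3i. Il18, at 26.4, 18.6 and 15.5 CPM after JAK3i and 6.43, 6.37 and 37.8 CPM after JAK1i, did not pass the test (0.26, 95% interval −0.63 to 1.15), but it passed without JAK1i replicate 3 (1.54, adjusted p = 5.52e-06, edgeR).

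Several of these calls between JAK3i and JAK1i rested on single libraries or on the shared estimate of spread. In a fit of only the 2 groups, 3 of the genes were called (Ifnar1, Ifnar2 and Il12rb1), beside 2405 of all 16410 genes. Ifng and Eomes had too few reads to be tested there. Tbx21 lost its call without JAK1i replicate 2 (adjusted p = 0.0833, edgeR), JAK1i replicate 3 (0.1) or JAK3i replicate 3 (0.0597). Ifng lost it without JAK1i replicate 2 (0.053), Il12rb2 without JAK1i replicate 2 (0.0678) or JAK3i replicate 1 (0.145), and Ifngr2 without JAK1i replicate 1 (0.0713), JAK3i replicate 1 (0.0605) or JAK3i replicate 3 (0.148). With total counts, Ifngr2 (adjusted p = 0.28, edgeR) and Il12rb2 (0.119) lost it. Without the 6 libraries of conflicting names, Eomes was at 4.09, Ifnar2 at 1.996, Il12rb1 at 1.72, Ifnar1 at 0.47, Ifngr2 at −0.765 and Il18 at 1.175. Ifng (2.81), Tbx21 (0.64), Ifngr1 (0.15) and Il12rb2 (−0.29) were then not called.

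Tofacitinib and ruxolitinib, given at an equal dose, differed in 1 of the 10 genes, which was lower after tofacitinib (0.236% of all genes were lower and 0.371% were called in all). Il12rb1 had 17, 24 and 24 reads after tofacitinib, against 62, 62 and 49 reads after ruxolitinib, a log2 fold change of −1.27 ± 0.23 (adjusted p = 0.019, edgeR). The groups did not overlap, but the call was lost without ruxolitinib replicate 1 (adjusted p = 0.162), ruxolitinib replicate 2 (0.0816), tofacitinib replicate 2 (0.0666) or tofacitinib replicate 3 (0.0877). For Ifng the difference was −0.52 with a 95% interval of −1.38 to 0.34, and for Eomes −1.10 with −2.13 to −0.06 (adjusted p = 0.416, edgeR), so a difference of 2-fold in either gene lies within its interval. The intervals were narrow for Ifnar1 (−0.13 to 0.21) and Ifngr2 (−0.20 to 0.22).

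Genes that carry the IFN-γ signal onward were lower after the same 4 inhibitors. Of 12 such genes, 12 were lowered after JAK1i, 11 after JAK3i, 10 after ruxolitinib and 10 after tofacitinib, against 35.4%, 33.1%, 27.2% and 28.2% of all 17770 genes in this order, and none was raised after any of them. Irf1, a transcription factor induced by IFN-γ, changed by −2.25, −1.65, −1.59 and −1.40 on the log2 scale after JAK1i, JAK3i, ruxolitinib and tofacitinib. Irf9, the DNA-binding subunit of the type I interferon response, changed by −1.69, −1.50, −1.05 and −0.80, and Socs1, which encodes a feedback inhibitor of JAKs, by −2.66, −2.46, −1.38 and −1.95. Irf8, a factor of macrophages and dendritic cells, changed by −2.42 after JAK1i, −1.28 after ruxolitinib and −1.19 after tofacitinib, and was not called after JAK3i (0.09). Medians of the list were −0.85, −0.82, −0.74 and −0.70.

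Of 13 genes of the IL-12 and IL-18 axis, 11 were lowered after JAK1i, 9 after JAK3i, 10 after ruxolitinib and 11 after tofacitinib, and none was raised. These counts stand beside the same shares of lowered genes, 35.4%, 33.1%, 27.2% and 28.2%. Il18bp, which encodes the soluble antagonist of IL-18, changed by −2.41, −2.15, −2.35 and −2.23 on the log2 scale. Casp1, the protease that matures IL-18, changed by −1.64, −0.87, −0.79 and −0.57. Stat4, through which IL-12 acts, changed by −3.98, −1.80, −1.44 and −1.79, and Il27ra, the IL-27 receptor, by −3.14, −1.97, −1.49 and −1.69.

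Of 9 other regulators of type 1 lymphocytes, 6 were lowered after JAK1i with none raised. JAK3i lowered 6 and raised 3, ruxolitinib lowered 5 and raised 2, and tofacitinib lowered 6 and raised 2. Since 64.2%, 64.8%, 50.9% and 52.9% of all genes were called in these comparisons, the counts alone do not set the regulators apart. Runx1 and Runx3, transcription factors of T cells, changed by −1.88 and −1.71 after JAK1i and by −1.62 and −2.49 after JAK3i, and Id2, a factor of effector lymphocytes, by −1.26 after JAK1i and −0.77 after JAK3i. The genes that were raised were Zeb2, a repressor that acts with T-bet (1.37 after JAK3i, 0.58 after ruxolitinib, 0.94 after tofacitinib), Twist1, a dampener of IFN-γ production in type 1 helper T cells (1.30, 1.29 and 1.36), and Hlx, a homeobox factor (0.46 after JAK3i). Of 9 genes of type 2 and type 17 immunity, 7 had enough reads, of which 4 were lowered after JAK1i, 5 after JAK3i, 3 after ruxolitinib and 3 after tofacitinib, beside the same background. Il4ra, the IL-4 receptor, changed by −2.93, −2.27, −1.60 and −2.23 and Il13, a type 2 cytokine, by −4.00, −3.17, −3.11 and −3.14 after JAK1i, JAK3i, ruxolitinib and tofacitinib. Il5, a type 2 cytokine, was raised after JAK3i alone (1.16), and Gata3, the factor of type 2 cells, was higher after JAK1i (0.33) and ruxolitinib (0.24) and lower after JAK3i (−0.29).

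Of 9 type I and III interferon genes and their other receptor chains, 7 had too few reads to be tested, among them Ifnb1 and Ifnk. Il10rb, a chain of the type III interferon receptor on chromosome 16, was lower after JAK1i (−1.08) and higher after JAK3i (1.41), as Ifnar2 was. The 2 genes are neighbours on the plus strand, where Ifnar2 ends at 91405589 and Il10rb starts at 91406164. A link between their counts was not tested. Ifnlr1, its partner, was lower after JAK3i (−0.95) and was not called after JAK1i (−0.24).

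Searching 14348 genes for those whose 6 log2 fold changes against vehicle (5 inhibitors and pretreatment) lay closest to those of Ifng gave Ubd, Tnfrsf9, Pdcd1lg2, Ccl5 and Trgv2, with root mean square differences of 0.174, 0.234, 0.373, 0.387 and 0.399. Ubd changed by −6.66 after JAK1i and −4.54 after JAK3i. Closest to Il18 were Stard4, Ednrb, Sqle, Gm9696 and H2-DMa, with differences of 0.200 to 0.237, and closest to Ifngr1 were Serinc1, Hecw2, Zfp820, Sri and Abhd4, with 0.062 to 0.071. Among the 10 genes themselves, the closest pairs were Ifngr2 and Ifnar1 (0.322), Ifnar1 and Ifnar2 (0.406) and Tbx21 and Il12rb1 (0.446), and Ifng and Il12rb2 lay farthest apart (5.298). All 6 values share the vehicle libraries, and likeness of this kind is a description.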

How the data were processed

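RNA-Seq was performed by the authors on 24 skin libraries of C3H/HeJ mice with AA. The deposited counts are raw read counts per Entrez gene. According to the submitters' processing notes, the tools included Subread and DESeq2 1.18.1 and the genome was mm10 (GRCm38), and the strand setting and the annotation used for counting are not given in the sources used here. A second deposited table, of scores that the authors made for the 7 genes of their ALADIN signature, covers none of the genes described here and served only to check library names: 18 of 24 columns matched the library of the same name. In the count table, 26 symbols turned into dates were restored by Entrez ID, and 855 genes without a symbol took up to 0.608% of a library. Total counts ranged from 17311913 to 21858670 (median 19462756.5).

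The quasi-likelihood test of edgeR 4.0.16 (R 4.3.3) was applied to the counts in 1 fit of all 7 groups after TMM scaling. The filter filterByExpr, at a minimum count of 10 and a minimum total of 15, left 17770 genes. The Benjamini-Hochberg adjustment covered all of them, and a call means an adjusted p below 0.05. CPM are scaled by the same factors. Intervals from reads are exact 95% intervals and cover counting error only. The tests were tried on simulated data. Positions and exon overlaps are from GENCODE M21 (GRCm38).

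The 10 genes and the other lists were chosen with earlier results of these data known. From each further list the text names at most 4 genes with the smallest p for JAK1i against vehicle, and those called in the other direction, apart from some genes that are not reported here by name. Genes named outside that rule, after their values were seen, are Cd3d, Krt14, Ifnb1, Ifnk, Gm21970, Gm33460, Gm49751 and Serbp1. Likeness covers genes with a mean log2 CPM of at least 1. Alternatives were DESeq2 1.42.0, RLE and total count scaling, TMM without skeletal muscle genes, no filter, a CPM of at least 1 in at least 3 libraries, fits of only the 2 groups, fits of the 18 posttreatment libraries (without a block, or blocked by replicate number), and leaving out each library. Leaving out the 6 libraries of conflicting names was added after seeing the data.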

Additional observations from a re-analysis of the deposited data

Results flagged for a closer look

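Only the pretreatment group has enough libraries for a check of single samples. Across its 6 libraries, none of the 10 genes had a highest or lowest value that stood apart from the rest by Dixon's criterion. The largest gap to the nearest library was that of Il12rb2, at 0.508 of the group's range, below the critical value.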

How the results depend on the processing

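Each of the 10 genes in each of the 15 comparisons gave 150 results, of which 89 were called. Per comparison, 0% to 69.4% of all genes were called. Among the 89 called results, 73 were called under every alternative run. Of the 61 that were not called, 47 stayed so under every alternative, and no called change turned its direction. The number of the 10 genes called stayed within 1.5 times the reported one except in 2 comparisons. Between JAK3i and JAK1i it was 3 in place of 9 when only the 2 groups were fitted, where 2 genes had too few reads, and 6 to 9 with each library left out. Between tofacitinib and ruxolitinib it was 0 in place of 1 when only the 2 groups were fitted, 0 with the 18 posttreatment libraries alone, and 0 to 1 with each library left out. Whether the replicate number shared between groups pairs the libraries is not stated. Deviations of same-numbered libraries correlated at −0.173 to 0.29, above 0.1 in 3 of 45 pairs. With 3 libraries per treated group, these values cannot settle it. With the replicate block the 18 libraries gave 0 between tofacitinib and ruxolitinib and 8, 0, 7, 8 and 8 genes called for JAK1i, JAK2i, JAK3i, ruxolitinib and tofacitinib against vehicle, the counts also reached without it. Of all 17656 genes tested with the block, 11012, 0, 11043, 8375 and 8782 were called against vehicle in this order.

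Scaling by total counts moved the median log2 fold change of all genes by −0.107 for JAK1i against vehicle, 0.115 for ruxolitinib against vehicle and 0.16 for JAK3i against JAK1i, and by −0.124 and −0.13 for JAK1i against pretreatment and JAK2i. The share of calls that were higher became 60.4% in place of 46.4% for ruxolitinib against vehicle, 59.1% in place of 47.3% for ruxolitinib against pretreatment, 69.5% in place of 49.0% for JAK3i against JAK1i and 18.5% in place of 36.4% for tofacitinib against ruxolitinib, where DESeq2 gave 52.2%. Genes called in all for tofacitinib against ruxolitinib ranged from 2 to 299 around 66, and for JAK3i against JAK1i from 2405 to 9519 around 7618. Leaving out the 6 libraries of conflicting names was an alternative chosen after seeing the data. It leaves 1 library each of JAK1i, JAK2i and JAK3i, which is assumed to vary like the other groups. Against vehicle, Ifngr1 and Ifngr2 were then at 0.39 and 0.505 after JAK1i. With DESeq2, RLE scaling, no filter and the stricter filter, Ifngr1 and Ifngr2 were called higher after JAK1i. Depth limits Eomes, Ifng and Tbx21 most, with 3, 4 and 25 reads over the 3 JAK1i libraries.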
